A study of Homo sapiens with 14 samples.

Results

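The genes described here encode the G proteins that sit under the CALCRL receptor and the machinery that makes, breaks and reads cyclic AMP. They were chosen by gene name from 2 tables that the authors deposited, one for each treatment. The name pattern took G protein alpha, beta and gamma subunits, RGS proteins, adenylyl cyclases, phosphodiesterases, subunits of protein kinase A (PKA), its anchoring proteins, Rap exchange factors and the CREB family. Of the 12202 genes listed in either table it gave the 79 described here, 76 in each table and 73 in both. A name pattern also picks up relatives with other work: PDE12 and PDE4DIP are not cAMP phosphodiesterases, and CREB3, CREB3L1, CREB3L2 and CREB3L4 belong to a group of membrane-anchored factors. PDE6D and RGS7BP likewise carry the name of a family without being a phosphodiesterase or an RGS protein. Leaving out the first 6 changed none of the counts of called genes given here, and leaving out PDE6D and RGS7BP too made them 4 under siRNA, 10 after the deletion and 9 between the arms.

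The study used teloHAEC, a telomerase-immortalised line of human aortic endothelium, and its 14 libraries form 2 arms. The siRNA arm set 4 libraries of cells reverse transfected with CALCRL siRNA against 4 with scrambled siRNA, lysed after 24 hours. For the deletion arm Cas9 was electroporated with guides on either side of a CALCRL enhancer (3 libraries) or with a guide that cuts HPRT (3 control libraries), so both of its groups carried Cas9 and a cutting guide. Its RNA was collected after 2 days, and the labels name no selection of edited cells and no cloning. The labels do not say whether replicates were separate cultures, so the p-values measure the spread between these libraries, which may be technical. Of the 9 endothelial marker genes, 8 were listed in both tables, among them CDH5, ERG, TIE1, TEK and KDR, and PECAM1 was in neither. Of the other markers ACTA2 and TAGLN were listed, and no row was found for MYH11, CNN1, PDGFRA, DCN, LUM, PTPRC or EPCAM.

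CALCRL is a receptor that couples mainly to the stimulatory G protein Gs. Its alpha subunit, encoded by GNAS, activates adenylyl cyclases, which make cAMP. In the cell, cAMP releases the catalytic subunits of PKA from their regulatory subunits and also activates the Epac exchange factors for the small GTPase Rap1. Phosphodiesterases degrade cAMP, RGS proteins shorten G protein signals, anchoring proteins place PKA, and CREB factors carry the signal to genes. In endothelium the pathway is known for tightening cell junctions and for its part in vascular tone.

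In the authors' deposited tables CALCRL itself was at 34.0% of the scrambled control under siRNA (95% interval 27.1% to 42.7%, adjusted p-value 1.90e-17) and at 36.2% of the control after the deletion (20.2% to 64.7%, adjusted p-value 0.00962). The receptor's transcript was thus low in both arms when the genes below it were measured. These adjusted p-values, and those of single genes below, are the authors' own DESeq2 Wald tests over all rows of a table, and a gene counts as called under 0.05. The tables give no value for a single library. The level of each group was therefore worked out from the deposited mean normalised count of the arm and its fold change, and is called the implied mean. Depth per library is likewise unknown. The median standard error of a member's log2 fold change in the deposited tables was 0.16 for siRNA and 0.38 for the deletion, so the deletion comparison resolves only larger changes.

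Under siRNA, 4 of the 76 members were called, all lower: PRKACB and PRKAR2A, which encode PKA subunits, GNA13, a G protein alpha subunit, and PDE7B, a cAMP phosphodiesterase. Of all genes in that table, 2.42% were called lower and 3.46% in either direction, against 5.26% of the members. No member was called higher, against 1.05% of all rows, by the authors' DESeq2 test, and 8 members (10.5%) had an unadjusted p-value under 0.05 (12.0% of all rows). After the enhancer deletion, 11 of the 75 members with a p-value were called, 10 lower and 1 higher. At an unadjusted p-value under 0.05 there were 20 (26.7%, with 29.7% of all rows). The 11 called are 14.7% of the members, and 15.8% of all rows of the table were called, so their number says nothing particular about the pathway. The 10 lower members make up 13.3% against 8.44% of all rows called lower, and the 1 higher member 1.33% against 7.40% called higher. With a trend of fold change on GC content removed from the deletion table, 9 members were called (12.0%, with 12.4% of all rows so treated), 6 lower (7.08% of all rows were) and 3 higher (5.31% of all rows). Of the 11 called before, 6 kept their call: ADCY7, GNAS, GNB2, GNB3, PDE6D and RGS19. The median log2 fold change of the members was -0.04 under siRNA and -0.14 after the deletion, with 0.00 over all rows of each deposited table. Fewer cells of one kind and less RNA per cell cannot be told apart in such bulk libraries.

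**Figure D1:**
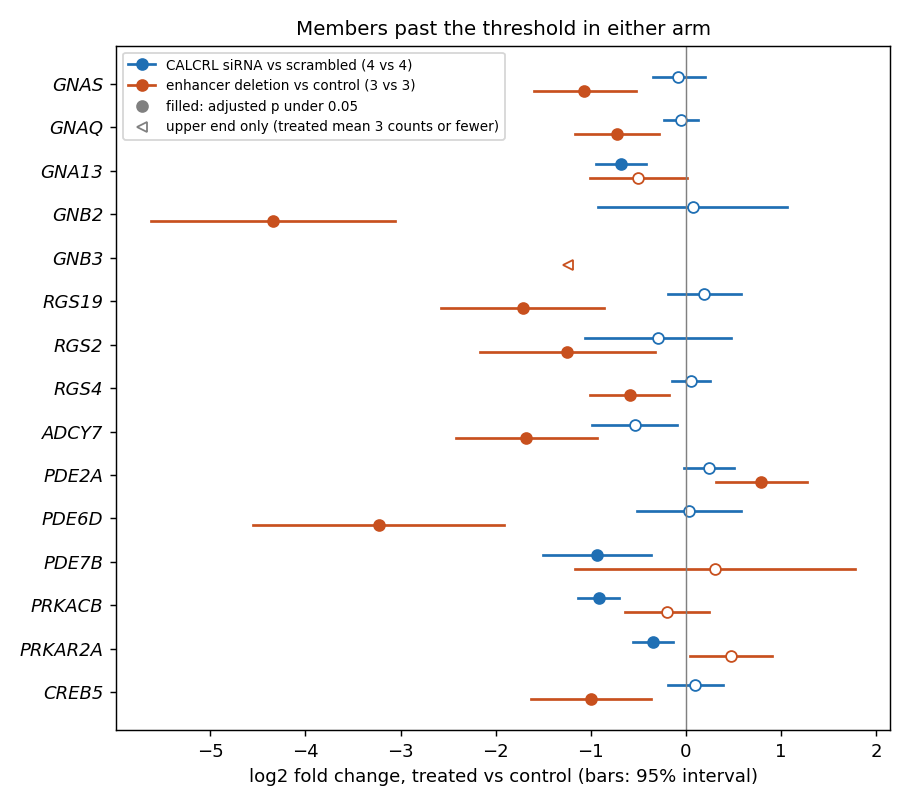
Log2 fold change (horizontal axis) of the 15 members called in either arm, with 95% intervals; blue is CALCRL siRNA against scrambled siRNA, orange is enhancer deletion against control, and filled points passed an adjusted p-value of 0.05; the triangle is the upper end for GNB3, called in the deletion arm. No gene has filled points in both colours, and GNB2 and PDE6D lie farthest to the left, at -4.34 and -3.23 in the deletion arm.

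No member was called in both arms by the authors' DESeq2 tests, against 0.432% of all genes tested in both. When an unadjusted p-value under 0.05 was asked for in each arm, 4 such members were found among 73 (5.48%, with 3.42% over all genes). The adenylyl cyclase gene ADCY7 and the G12 family gene GNA12 were lower in both arms (2.74%, with 1.85% over all genes), and the anchoring protein gene AKAP13 and PRKAR2A were below the control under siRNA and above it after the deletion (2.74%, with 1.57% over all genes).

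G protein alpha subunits define which pathway a receptor reaches: GNAS encodes the stimulatory subunit, GNAI1 to GNAI3 the inhibitory ones, GNAQ and GNA11 those that activate phospholipase C, and GNA12 and GNA13 those that act through RhoA. Of 8 listed, 1 was called under siRNA and 2 after the deletion, all lower. Over all rows, 2.42% were called lower under siRNA and 8.44% after the deletion. GNAS (chromosome 20, 58839718 to 58911192, GRCh38) fell after the deletion, from an implied mean of 2045 normalised counts in the controls to 976. This was 47.7% of the control (95% interval 32.9% to 69.2%), with a log2 fold change of -1.07 (SE 0.27) and an adjusted p-value of 0.00287 in the authors' deposited table. Under siRNA its implied means were 2479 in the controls and 2348 in the treated cells, a deposited log2 fold change of -0.08 (SE 0.14, adjusted p-value 0.945). The 2 arms differed for GNAS by 0.99 on the log2 scale (siRNA minus deletion, SE 0.31, adjusted p-value 0.0180 over all genes). GNAS is a locus with several promoters whose transcripts share their 3' end, which reads from that end cannot separate.

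GNAQ (chromosome 9, 77716087 to 78031458) fell after the deletion as well, from an implied mean of 627 to 379, or 60.5% of the control (44.5% to 82.3%, adjusted p-value 0.0161, authors' deposited table). Log2 fold changes in the deletion table were higher for genes with a higher GC content in the transcript's last 500 bases, and with that trend removed GNAQ was at -0.50 and no longer called (adjusted p-value 0.128; the rank correlation with GC was 0.303 over 11630 genes). Its close relative GNA11 was at 0.39 (SE 0.18) in the deposited deletion table, without passing the threshold (adjusted p-value 0.126). The abundant inhibitory subunit gene GNAI2 was at -0.48 (SE 0.31, adjusted p-value 0.297) after the deletion and at 0.15 (SE 0.08, adjusted p-value 0.413) under siRNA in the authors' deposited tables. GNAI3 was at -0.10 (SE 0.21) and -0.02 (SE 0.08) in the same order, neither called.

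GNA13 (chromosome 17, 65010715 to 65056839) was the alpha subunit gene that fell under siRNA. Its implied mean went from 184 in the scrambled controls to 114, which is 62.3% of the control (51.7% to 75.0%). The deposited log2 fold change was -0.68 (SE 0.14, adjusted p-value 6.88e-05). In the deletion arm the authors' deposited table has GNA13 at -0.50 (SE 0.26), or 70.8% of the control (49.7% to 101%, adjusted p-value 0.181), and the difference between the arms was -0.18 (SE 0.29, adjusted p-value 0.720). GNA12 stood next outside the siRNA threshold at -0.31 (SE 0.13, adjusted p-value 0.209) and had a log2 fold change of -0.62 (SE 0.26, adjusted p-value 0.0789) in the deletion arm, per the authors' deposited tables.

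Among the beta and gamma subunits, which form the membrane-bound partner of the alpha subunit, 0 of 9 were called under siRNA, with 0 at an unadjusted p-value under 0.05, and 2 of 9 were called lower after the deletion. Over all rows, 3.46% were called under siRNA, 12.0% had such an unadjusted p-value there, and 8.44% were called lower after the deletion. GNB2 (chromosome 7, 100673531 to 100679174) had the lowest level relative to control of the members whose fold is given. Its implied mean was 266 normalised counts in the control cells and 13.1 in the deletion cells. In the deposited deletion table this is a log2 fold change of -4.34 (SE 0.65, adjusted p-value 3.82e-08), or 4.94% of the control (2.03% to 12.0%). Under siRNA its implied means were 344 and 362, a deposited log2 fold change of 0.07 with a standard error of 0.51. That standard error was 4.22 times the one typical of its mean count, the highest such ratio of the members.

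GNB3 was called lower after the deletion from few counts: its implied mean was 15.7 in the controls and 0.786 in the treated cells, under 3 counts, so that only the upper end of its interval is given, 42.3% of the control (adjusted p-value 0.0417, authors' deposited table). Its 3' end overlaps exons of CDCA3 on the other strand in GENCODE 29. CDCA3 was also lower in the authors' deposited table, at -1.70 (SE 0.61, adjusted p-value 0.0393), and whether counting used the strand is not given in the sources used here, so the 2 genes cannot be told apart. Of the abundant partners, GNB1 was at -0.34 (SE 0.24) after the deletion and 0.08 (SE 0.07) under siRNA in the deposited tables, neither called. GNB4 was at -0.59 (SE 0.33, adjusted p-value 0.216) and 0.28 (SE 0.15, adjusted p-value 0.471) in the same order. GNG11, the gamma subunit gene with the highest deposited mean count in both tables, had 0.36 (SE 0.18, adjusted p-value 0.156) in the deposited deletion table and GNG12 0.17 (SE 0.17). With the GC trend removed, GNG11 was at 0.67 and passed the threshold (adjusted p-value 0.00576). GNG5 was at -0.85 after the deletion in the authors' deposited table and was not called; its standard error of 0.65 was 2.73 times what genes of that mean had.

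RGS proteins speed up the hydrolysis of GTP by alpha subunits and so end a signal. None of 12 listed with an RGS name was called under siRNA by the authors' DESeq2 test (3.46% of all rows were). An unadjusted p-value under 0.05 was found for 0 of them (12.0% of all rows). After the deletion 3 of 11 were called, all lower, with 8.44% of all rows called lower. RGS19 (chromosome 20, 64073181 to 64079988), which acts on inhibitory alpha subunits, fell from an implied mean of 134 to 41.0, or 30.5% of the control (16.9% to 55.1%, adjusted p-value 0.00260, authors' deposited table). Under siRNA RGS19 was at 0.19 (SE 0.20) in the deposited table, and the arms differed by 1.91 (SE 0.48, adjusted p-value 0.00288). RGS2 (chromosome 1, 192809039 to 192812283), a brake on GNAQ signalling, fell from 226 to 95.1, or 42.1% of the control (22.2% to 79.5%). Its adjusted p-value of 0.0492 in the authors' deposited table was the last inside the threshold, and PRKAR1A, at 0.0593, was the first outside it.

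RGS4 (chromosome 1, 163068775 to 163076802) fell from 1202 to 796, or 66.2% of the control (49.6% to 88.4%, adjusted p-value 0.0380, authors' deposited table). With the GC trend removed, RGS2 was at -1.06 and RGS4 at -0.41, and neither passed the threshold (adjusted p-values 0.116 and 0.194). RGS5, the RGS gene with the highest deposited mean count, was at -0.17 (SE 0.17) after the deletion and -0.16 (SE 0.08) under siRNA in the authors' deposited tables, neither called. Of the other uncalled genes of this group, RGS17 was at -0.74 (SE 0.40) and RGS7BP at -0.20 (SE 0.52) after the deletion in the authors' deposited table, and RGS3, RGS10, RGS12, RGS16 and RGS20 lay between -0.03 and 0.25.

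**Figure D2:**
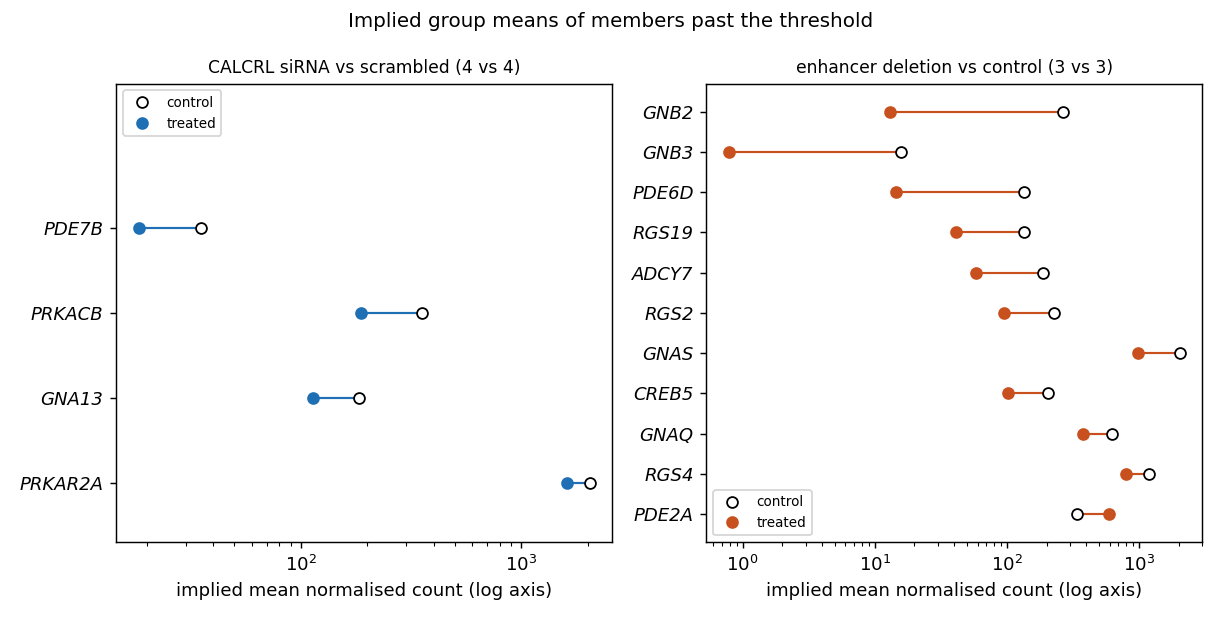
Implied mean normalised count (log axis) in control (open) and treated (filled) cells for the members called in each arm, 4 under siRNA on the left and 11 after the deletion on the right. GNB2, GNB3 and PDE6D have the widest gaps, and PDE2A is the member whose treated mean lies to the right of the control.

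Of the adenylyl cyclases, which make cAMP, ADCY3, ADCY4, ADCY6, ADCY7 and ADCY9 were listed under siRNA and all of these but ADCY4 in the deletion table. ADCY7 (chromosome 16, 50246137 to 50318135) fell after the deletion from an implied mean of 189 to 58.9, or 31.2% of the control (18.7% to 52.0%, log2 fold change -1.68, SE 0.38, adjusted p-value 5.01e-04, authors' deposited table). Under siRNA its implied means were 90.4 and 62.1, which is 68.7% of the control (50.3% to 93.8%), and its deposited adjusted p-value was 0.238. Its last 500 bases overlap exons of BRD7 on the other strand, and BRD7 was higher after the deletion, at 1.24 (SE 0.35, adjusted p-value 0.00734, authors' deposited table), the opposite direction to ADCY7. The other cyclases were also below their controls in the deletion table without passing the threshold: ADCY3 was at -0.98 (SE 0.40, adjusted p-value 0.0774), ADCY9 at -0.95 (SE 0.66, adjusted p-value 0.338) and ADCY6 at -0.45 (SE 0.94, adjusted p-value 0.791) by the authors' deposited table. Under siRNA those 3 were at 0.07 (SE 0.17), -0.35 (SE 0.36) and 0.06 (SE 0.38) in the deposited table, and ADCY4 at 0.06 (SE 0.38), none called.

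Among the genes with a phosphodiesterase name 1 of 13 was called under siRNA, lower, and 2 of 14 after the deletion, 1 in each direction. The lower one of these 2 was PDE6D, which is not a phosphodiesterase. Over all rows, 2.42% were called lower under siRNA and 15.8% in either direction after the deletion. PDE7B (chromosome 6, 135851696 to 136195574), a cAMP-specific enzyme, fell under siRNA from an implied mean of 35.3 to 18.4, or 52.3% of the control (35.3% to 77.4%). Its adjusted p-value of 0.0377 in the authors' deposited table was the last inside the siRNA threshold. In the deletion arm PDE7B was at 0.31 with a standard error of 0.75 in the deposited table, and the arms did not differ past the threshold (-1.24, SE 0.81, adjusted p-value 0.305). PDE2A (chromosome 11, 72576141 to 72674591), an enzyme that cGMP switches on to degrade cAMP, rose after the deletion from 341 to 591, or 173% of the control (124% to 241%, adjusted p-value 0.0146, authors' deposited table). It was at 0.24 (SE 0.14, adjusted p-value 0.502) under siRNA in the deposited table, and with the GC trend removed it was at 0.47 and no longer called in the deletion arm (adjusted p-value 0.193).

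PDE6D (chromosome 2, 231732425 to 231786272) carries a phosphodiesterase name but encodes a carrier of prenylated proteins. It fell after the deletion from an implied mean of 136 to 14.5, or 10.7% of the control (4.28% to 26.7%, log2 fold change -3.23, SE 0.67, adjusted p-value 1.67e-04, authors' deposited table). Under siRNA it was at 0.03 (SE 0.28) in the deposited table, with a standard error 1.72 times the one typical of its mean count. The cAMP-specific enzymes PDE4A, PDE4B and PDE4D had deposited log2 fold changes of 0.30 (SE 0.55), -0.45 (SE 0.51) and -0.02 (SE 0.53) after the deletion. Their values under siRNA in the deposited table were -0.02 (SE 0.20), 0.04 (SE 0.23) and 0.34 (SE 0.21), and none was called in either arm.

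PKA was the part of the pathway with the lowest p-value under siRNA. PRKACB (chromosome 1, 84078062 to 84238498), which encodes the beta catalytic subunit, fell from an implied mean of 354 in the scrambled controls to 188. This was 53.0% of the control (45.7% to 61.5%), with a log2 fold change of -0.91 (SE 0.11) and an adjusted p-value of 4.99e-14 in the authors' deposited table. After the deletion PRKACB was at 86.9% of the control (64.0% to 118%, adjusted p-value 0.587, authors' deposited table), and the arms differed by -0.71 (SE 0.25, adjusted p-value 0.0377). The alpha catalytic subunit gene PRKACA was at -0.09 (SE 0.10) under siRNA and -0.06 (SE 0.27) after the deletion in the deposited tables, neither called.

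The regulatory subunit gene PRKAR2A (chromosome 3, 48744597 to 48847846) fell under siRNA from 2044 to 1603, or 78.4% of the control (67.9% to 90.6%, adjusted p-value 0.0327, authors' deposited table). With the GC trend removed its adjusted p-value was 0.0548. After the deletion the deposited table has it at 138% of the control (103% to 186%, adjusted p-value 0.127), and with the GC trend removed at a log2 fold change of 0.72, past the threshold (adjusted p-value 0.0162). The arms differed for PRKAR2A by -0.82 (SE 0.24, adjusted p-value 0.0134). PRKAR1A, another regulatory subunit gene, was at 104% of the control under siRNA (89.2% to 122%) and at 52.8% after the deletion (32.4% to 86.0%, adjusted p-value 0.0593, authors' deposited table). When rows with a mean under 50 were left out before adjustment, PRKAR1A passed the deletion threshold (adjusted p-value 0.0475). PRKAR2B and PRKAR1B were at 0.39 (SE 0.24) and -0.05 (SE 0.55) after the deletion and at -0.14 (SE 0.11) and 0.18 (SE 0.17) under siRNA in the deposited tables, none called.

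No anchoring protein gene was called in either arm by the authors' DESeq2 tests, with 1 of 10 at an unadjusted p-value under 0.05 under siRNA and 2 of 10 after the deletion. Over all rows, 12.0% and 29.7% had such an unadjusted p-value in the same order, and 3.46% and 15.8% were called. AKAP12, the anchoring gene with the highest deposited mean, was at 150% of the control after the deletion (107% to 209%, adjusted p-value 0.0858, authors' deposited table) and at 116% under siRNA (92.2% to 146%). With the GC trend removed, AKAP12 passed the threshold in the deletion arm at 0.81 (adjusted p-value 0.0155). AKAP13, which also activates RhoA, was at 0.69 (SE 0.28) after the deletion and -0.29 (SE 0.14) under siRNA in the deposited tables, and the arms differed by -0.98 (SE 0.32, adjusted p-value 0.0222) although neither value was called. AKAP6 was listed after the deletion with no p-value.

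The cAMP-activated Rap exchange factors Epac1 and Epac2 are encoded by RAPGEF3 and RAPGEF4. None of the 6 exchange factor genes was called in either arm by the authors' DESeq2 tests, and none had an unadjusted p-value under 0.05. Of all rows, 3.46% were called under siRNA and 15.8% after the deletion, and 12.0% and 29.7% had such an unadjusted p-value. With 6 genes, counts of 0 say little about this branch. RAPGEF3 was at 86.2% of the control under siRNA (64.1% to 116%) and at 146% after the deletion (57.8% to 369%) in the authors' deposited tables. Its mean count was low, at 44.6 under siRNA and 43.8 in the deletion arm. RAPGEF1 and RAPGEF2, which are not regulated by cAMP binding in the way of Epac, were at 75.6% (46.9% to 122%) and 80.3% (58.3% to 111%) of the control after the deletion and at 104% (90.3% to 121%) and 97.2% (76.5% to 123%) under siRNA in the deposited tables.

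In the CREB family, CREB5 (chromosome 7, 28299321 to 28825894), a factor that binds cAMP response elements, fell after the deletion from 205 to 102 (interval 32.3% to 77.3% of the control, adjusted p-value 0.0196, authors' deposited table). It was at 0.10 (SE 0.15) under siRNA in the deposited table, and the arms differed by 1.10 (SE 0.35, adjusted p-value 0.0220). With the GC trend removed CREB5 was at -0.77 and no longer called in the deletion arm (adjusted p-value 0.0924), nor was the difference (0.88, adjusted p-value 0.0805). CREB1, the factor that PKA phosphorylates directly, was at -0.17 (SE 0.11) and -0.02 (SE 0.25) for siRNA and deletion in the deposited tables. CREM, which cAMP is known to induce as a short repressor form, was at 0.09 (SE 0.10) and 0.50 (SE 0.26, adjusted p-value 0.172) in the same order, neither called. CREB3L1 rested on an implied control mean of 3.75 normalised counts in the deletion arm, and its value there of 2.33 (SE 1.37) was not called in the authors' deposited table.

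**Figure D3:**
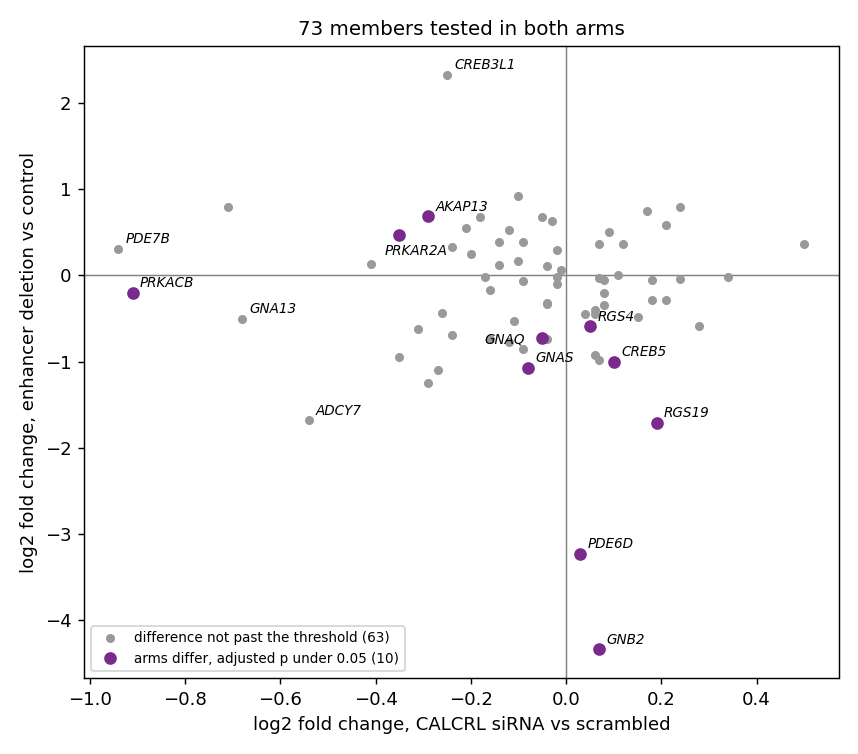
Log2 fold change under CALCRL siRNA (horizontal) against that after the enhancer deletion (vertical) for the 73 members tested in both arms; purple points are the 10 whose arms differed at an adjusted p-value under 0.05. GNB2, PDE6D and RGS19 lie near 0 on the horizontal axis and far below 0 on the vertical one, while PRKACB lies to the left and near 0 vertically.

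The effects of the 2 arms differed in 10 of 73 members (13.7%), and in 13.7% of all 10891 genes tested in both. The siRNA value was the higher one in 7 (GNB2, PDE6D, RGS19, CREB5, GNAS, GNAQ and RGS4; 9.59%, with 7.22% over all genes) and the lower one in 3 (AKAP13, PRKAR2A and PRKACB; 4.11%, with 6.49% over all genes). For GNB2 the difference was 4.41 (SE 0.83, adjusted p-value 3.77e-05) and for PDE6D 3.25 (SE 0.73, adjusted p-value 6.94e-04). The arms share no libraries, but they differ in delivery, time and control, which cannot be told apart from the target.

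The calls in the deletion arm rest on a normal reference for 3 libraries against 3. When Student's t with 4 degrees of freedom was used instead, or with the statistics divided by their robust SD of 1.88, 0 of the 11 deletion calls were left. In that arm 9 and 5 members then had an unadjusted p-value under 0.05. Student's t gave GNB2 and RGS2 the same adjusted p-value there, 0.357, so its count of 0 does not rank these calls. For the 10 differences, the degrees of freedom were worked out per gene from both standard errors, and 0 were left. Division by the robust SD of the difference statistics also left 0. Student's t, with 6 degrees for siRNA, left 0 of the 4 siRNA calls (5 members at an unadjusted p-value under 0.05). Division by the robust SD left PRKACB and GNA13 there. No share of all rows is given for these alternatives, so they do not set the members apart from other genes. Among the endothelial markers of the deletion arm, CDH5 was at 37.0% of the control (23.1% to 59.2%) and KDR at 48.3% (31.9% to 73.3%), both called lower, the only ones of the 8 markers in the authors' deposited table. Of all rows of that table, 8.44% were called lower. The summed deposited mean of the 8 markers was 3759 in that table and 4413 in the siRNA table, where 0 of 8 were called and 1 had an unadjusted p-value under 0.05 (3.46% and 12.0% of all rows). The part of this in the members' changes was not tested.

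GNB2 and RGS2 stood out by their siRNA standard errors, 4.22 and 3.01 times the level typical of their mean count, and were the only members of 73 with a ratio over 2. Both were called lower after the deletion. Over all 10891 genes tested in both arms, 215 had a ratio over 2 (1.97%), and 207 of them had a log2 fold change below 0 in the deletion arm, with a median of -2.01, against 0.02 for the other genes. Of those 215 genes, 146 were called lower in the deletion arm, against 825 of the other 10676, so the calls of GNB2 and RGS2 are not particular to these members. The cut at 2 was known from earlier results of these data. Of the other 8 members called lower after the deletion and listed in both tables or one, PDE6D had a ratio of 1.72, GNAS 1.40, ADCY7 1.19, RGS19 1.06, RGS4 0.99, CREB5 0.93 and GNAQ 0.78, and GNB3 was not listed under siRNA. What makes libraries of the siRNA arm spread for GNB2 and RGS2 was not tested.

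**Figure D4:**
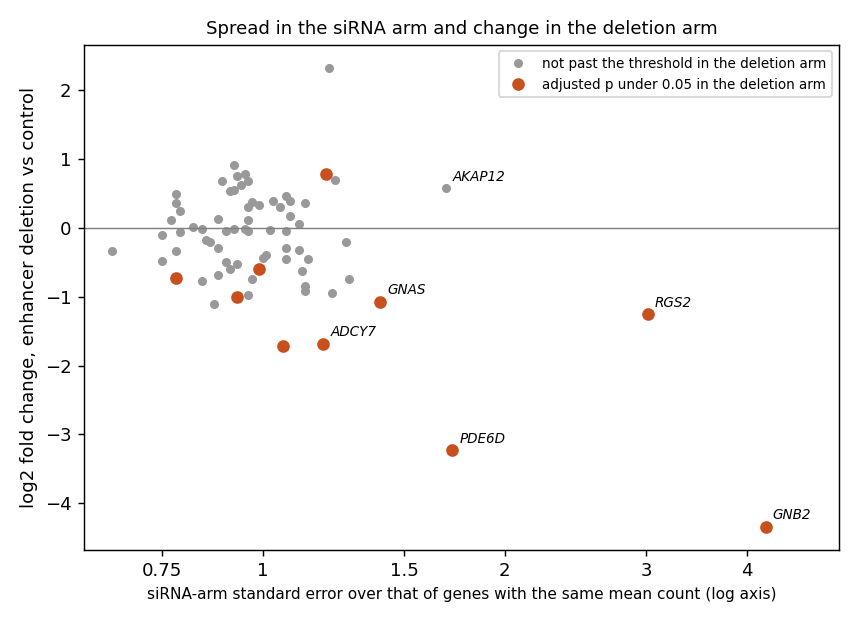
Standard error in the siRNA arm relative to genes with the same mean count (horizontal, log axis) against log2 fold change after the enhancer deletion (vertical) for the 73 members tested in both arms; orange points were called in the deletion arm. GNB2 and RGS2 are the points to the right of 2, and both lie below 0.

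Under siRNA, members were also read against a 7-base word in the 3' UTR, GTAACAA, which an earlier search of these same siRNA values had picked as the word most tied to lower genes. The match is therefore a description and no independent test, and the sequence of the siRNA is not used here. The word was found in 10 of the 76 members with an annotated 3' UTR (13.2%), against 10.7% of all 10639 such genes of the table. The windows below show it in capitals within 30 bases of the transcript, 5' to 3', from GENCODE 29 transcripts; they are given for the called carriers PRKACB and GNA13 and for the carriers ADCY7 and GNA12, which were lower at an unadjusted p-value under 0.05.
PRKACB, first site: gcatccacctatGTAACAAggcaccgctaa
PRKACB, second site: agcaagttttgtGTAACAAaggcatatcgt
GNA13: gcccaaacatttGTAACAAactccctaata
ADCY7, first site: gtcaacctaactGTAACAAcagggtgagaa
ADCY7, second site: tttttttcttcaGTAACAAcagaaacccca
GNA12: tattgcaaaaatGTAACAAtaaagttcctc

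The PRKACB windows lie at chr1:84235462-84235491 and chr1:84237175-84237204 on the plus strand (GRCh38), in a 3' UTR of 3193 bases. Those of ADCY7 lie at chr16:50316734-50316763 and chr16:50317502-50317531, also on the plus strand. The GNA13 window is at chr17:65010731-65010760 and that of GNA12 at chr7:2728566-2728595, both on the minus strand. In GNA13 and in the second PRKACB site the word is followed by an A, and in the other 4 windows by another base.

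The 10 carriers had a median log2 fold change of -0.28 under siRNA in the authors' deposited table, and 8 of them were below 0. The 66 other members had a median of -0.02. Over all genes of the table the medians were -0.12 for 1136 carriers and 0.01 for 9503 others, and carriers had the longer 3' UTR (median 3369 against 1550 bases). Carriers were called lower in 13.2% of cases over all genes, against 1.22% of the others. PRKACB and GNA13 carry the word, whereas PRKAR2A and PDE7B, the other 2 called members, do not. Among the carriers AKAP7 and GNG2 were at 0.24 (SE 0.25) and 0.08 (SE 0.22) in the authors' deposited table. In the deletion arm, where no siRNA was given, the carriers' median was -0.13 and that of the other members -0.14. Over all genes of that table the medians were -0.14 for carriers and 0.01 for the others, a gap about as wide as under siRNA. The shares called lower there were 8.99% for carriers and 8.98% for the others. Because the word was picked from the siRNA values, a gap in the siRNA calls was built in, and setting the 2 arms side by side does not test its cause.

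**Figure D5:**
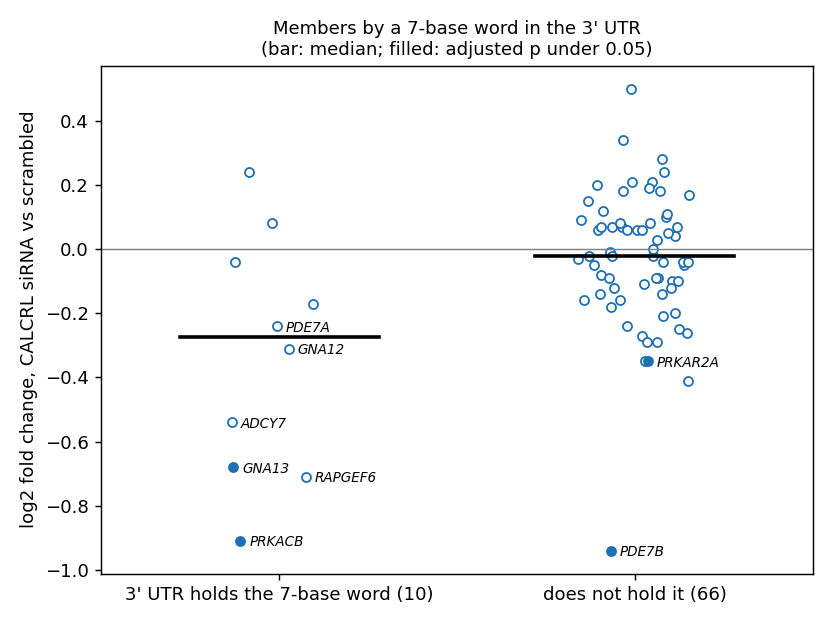
Log2 fold change under CALCRL siRNA (vertical) of the 76 members, split by whether the annotated 3' UTR holds the 7-base word (10 members) or not (66); bars are medians and filled points were called. PRKACB and GNA13 are the filled points on the left, and PDE7B and PRKAR2A those on the right.

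Other genes of the pathway were read from lists of 59 genes outside the name pattern: receptors and ligands, receptor kinases and arrestins, G protein chaperones, PKA inhibitors, CREB partners, the Rap1 branch and known CREB targets. Under siRNA 2 of 47 tested were called (4.26%, with 3.46% over all rows), and after the deletion 6 of 43 (14.0%, with 15.8% over all rows). Both counts hold CALCRL, the targeted gene; without it they were 1 of 46 (2.17%) and 5 of 42 (11.9%). Apart from CALCRL, the gene called under siRNA was GRK5, a kinase that switches off receptors, which rose to 143% of the control (117% to 174%, adjusted p-value 0.0163, authors' deposited table). After the deletion GRK5 was at 86.7% (53.2% to 141%) and not called.

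After the deletion the Gs-coupled prostaglandin receptor gene PTGER4 fell to 25.3% of the control (13.9% to 46.1%, adjusted p-value 4.78e-04, authors' deposited table). It was at 109% under siRNA (77.4% to 152%) in the deposited table. In the Rap1 branch RAP1A fell to 31.5% of the control (20.3% to 48.9%, adjusted p-value 3.86e-05) and RASIP1, a Rap1 effector of endothelial cells, rose to 276% (170% to 449%, adjusted p-value 0.00168), again by the authors' deposited table. RAP1B was at 148% (97.2% to 225%) and not called. PDCL, a folding partner of beta and gamma subunits, fell to 25.0% of the control (11.7% to 53.1%, adjusted p-value 0.00637, authors' deposited table).

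Of the known CREB targets DUSP1 was called lower after the deletion, at 35.2% of the control (17.5% to 70.7%, adjusted p-value 0.0289, authors' deposited table), and it was at 95.1% (75.0% to 121%) under siRNA. Of the 12 genes on that list 5 were in the deletion table, with 1 called, and 15.8% of all rows were called. The other 4 were not called, and each of their 95% intervals included no change. In the deposited table they were BDNF (-1.79, SE 1.07), CITED2 (-1.34, SE 0.82), NFIL3 (-0.69, SE 0.68) and PER1 (-0.54, SE 0.51). BDNF and CITED2 had low mean counts there, 13.0 and 23.2. Under siRNA 0 of 8 CREB targets were called by the authors' DESeq2 test, with 3.46% of all rows called. In that arm 2 of the 8, NFIL3 (-0.41, SE 0.16) and PER1 (-0.34, SE 0.16), had an unadjusted p-value under 0.05, with 12.0% of all rows. Among the PKA inhibitor genes PKIG was at 0.80 (SE 0.31, adjusted p-value 0.0526) and PKIA at -0.64 (SE 0.25, adjusted p-value 0.0568) after the deletion in the authors' deposited table, opposite in sign and both just outside the threshold. The receptor's ligand gene ADM was at 173% of the control after the deletion (110% to 273%, adjusted p-value 0.0843) and 109% under siRNA (88.8% to 134%) in the authors' deposited tables, called in neither.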

How the data were processed

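Gene expression was measured by 3' mRNA sequencing (QuantSeq FWD, single-end reads of 86 cycles, per the labels' protocols), which counts transcript ends. The authors used featureCounts for counts and DESeq2 for the comparison, per the file headers and names. The submitters' processing notes list hg19 and edgeR 3.24.3, with no role for either; the aligner, annotation, filters and strand setting are not given in the sources used here. The deposited tables give, with decimal commas, for each gene a mean normalised count, a log2 fold change and standard error, a Wald score, and the p-value before and after adjustment. The deposited statistic equalled fold change over standard error, and the adjusted p-value a Benjamini-Hochberg adjustment over the rows.

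From these values, 95% intervals used the normal quantile. Implied group means assumed groups of equal size, and a mean of 3 counts or fewer gave no fold. Differences between the arms were tested with a normal reference, adjusted over 10891 genes. Relative standard errors and the GC trend were lowess fits of span 0.1 and 0.3 (statsmodels 0.14.6, scipy 1.17.1). The code was run on simulated fold changes with normal noise scaled by the deposited standard errors. Such data cannot check the normal reference itself. GENCODE 29 (GRCh38) gave positions, matched by gene ID for all members; its positions are not those of hg19. Alternatives are given in the closing section.

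Members and lists were chosen with earlier results of these data known. Named were called members, members that differed between the arms, fixed core members, the 3 highest and lowest Wald statistics of each arm and the members next to the threshold, 41 in all. Further members are named for their value, chosen after it was seen. Accessory proteins of the receptor, and 1 other gene that the name pattern matches, are not reported here and enter no count of members.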

Additional observations from a re-analysis of the deposited data

Results flagged for a closer look

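For 10 members the effects of the siRNA and of the enhancer deletion differed, as tested on the difference itself at an adjusted p-value under 0.05 over 10891 genes. These are 13.7% of the members tested in both arms, and 13.7% of all genes differed, so their number says nothing particular about the pathway. The siRNA log2 fold change was higher by 4.41 for GNB2, 3.25 for PDE6D, 1.91 for RGS19, 1.10 for CREB5, 0.99 for GNAS, 0.68 for GNAQ and 0.64 for RGS4. It was lower for the other 3, with differences of -0.98 for AKAP13, -0.82 for PRKAR2A and -0.71 for PRKACB. In PRKACB and PRKAR2A the gene was called under siRNA and not after the deletion, in AKAP13 in neither, and in the other 7 after the deletion alone. With the GC trend removed, 8 members differed, a count for which no share of all genes is given. CREB5, GNAQ and RGS4 no longer did, and PRKAR2B was added at -0.77.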

How the results depend on the processing

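No paired analysis was possible because each table gives 1 fitted value per gene and none per replicate. The fit with a replicate block, without single replicates, with edgeR, another normalisation or a count filter was therefore not run. The Student t reference left 0 members called under siRNA, 0 after the deletion and 0 differing between the arms, with 5, 9 and 12 at an unadjusted p-value under 0.05. After the deletion it gave GNB2 and RGS2 the same adjusted p-value, 0.357, and so did not rank the calls. Division of the statistics by their robust SD left 2, 0 and 0, with 6, 5 and 3 at an unadjusted p-value under 0.05. A threshold of 0.01 left 2, 5 and 3. No share of all rows is given for these settings, so they do not set the members apart from other genes. Removing the GC trend gave counts of 3, 9 and 8, but the genes and directions moved: 3, 6 and 7 of the calls were kept, and in the deletion arm 10 lower and 1 higher became 6 lower and 3 higher. The counts stayed within 1.5 times their value with rows under a mean of 50 left out (3, 11 and 11), on centred fold changes (4, 11 and 10), without the 6 names outside the pathway (4, 11 and 10) and, an alternative chosen after seeing the data, without PDE6D and RGS7BP as well (4, 10 and 9). Removal of the GC trend changed the sign of 1 member under siRNA, 12 after the deletion and 8 of the differences, none of them called either way. Among the named members these were CREB1 (0.24), GNAI3 (0.12), PDE4D (0.15), PRKACB (0.03) and RGS5 (0.09) in the deletion arm, and, for the difference between the arms, GNAI3 (-0.13), PRKACA (0.28) and RGS5 (-0.23). The adjusted p-value of PRKACB under siRNA ranged from 3.68e-14 to 0.113 over its 6 alternatives, that of GNA13 from 5.24e-05 to 0.294, that of GNB2 after the deletion from 2.84e-10 to 0.470 and that of GNAS from 0.00218 to 0.976. Depth per library is unknown, and genes with few counts such as GNB3, PDE7B and RAPGEF3 have wide intervals.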

Other observations

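The full cAMP response element, TGACGTCA, which reads the same on both strands, was looked for in RefSeq promoters (GRCh38.p14, 250 bases before to 50 after a start), found for 72 of the 79 members. It occurred in 7 of their 175 promoters (4.00%), against 2.91% of 12709 promoters of genes in either table and 1.85% of all 35116. The genes were CREB3L2, CREM, PDE4A, PDE7B and PRKAR1A. A match is a description and not a bound site. The windows of the 3 with a value near or past a threshold, or known to respond to cAMP, show the element in capitals.
PDE7B: actaaacccttTGACGTCActcttgaaatg
PRKAR1A: gcgaggcgcatTGACGTCAgtagccgaacg
CREM: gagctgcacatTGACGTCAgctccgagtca

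They lie at chr6:135851535-135851564, chr17:68512370-68512399 and chr10:35195841-35195870, all on the plus strand. Of these 5 genes, PDE7B alone was called, lower under siRNA at 52.3% of the control in the authors' deposited table. Those called in no arm had deposited log2 fold changes of 0.09 (CREM), 0.06 (PRKAR1A), -0.02 (PDE4A) and -0.11 (CREB3L2) under siRNA, and 0.50, -0.92, 0.30 and -0.53 after the deletion.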
